A study of Mus musculus with 9 samples.

Results

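The 10 genes described here encode chondroitin sulphate proteoglycans of the nervous system and the proteins that tie them into perineuronal nets. They were chosen by name and are 10 of the 34745 genes in the table: the lecticans Acan, Bcan, Ncan and Vcan, the transmembrane proteoglycans Cspg5 and Ptprz1, the link proteins Hapln1, Hapln2 and Hapln4, and the tenascin Tnr. RNA was measured in spinal cord of mice (Mus musculus) from a study of complete transection at the T9 level, on day 0, day 3 and day 21, with 3 libraries a day. The series' design lists day 0 with the injured cords, but whether day 0 cords were cut before collection or left intact is not stated. Day 0 is the baseline here in either case. No separate sham group is given, nor are strain, sex, age, the length of cord taken or its distance from the cut. The titles mark the day 0 libraries only with the letter N, so that their day rests on the design text. Nothing states that the 3 libraries of a day came from separate animals, and p-values therefore measure only the spread between these samples.

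Lecticans carry chondroitin sulphate chains on a core protein whose one end binds hyaluronan and whose other end binds tenascins. Link proteins lock the hyaluronan end in place, and tenascin-R gathers the other ends, which gives a lattice around the cell bodies and proximal dendrites of motor neurons, parvalbumin interneurons and other neurons. After injury of the central nervous system, chondroitin sulphate proteoglycans gather in and around the scar, and their removal with chondroitinase in rodents aids axon growth and plasticity.

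Each of the 4 lectican genes lies next to a link protein gene, with no GENCODE M21 gene between them (build GRCm38). Hapln1 (ENSMUSG00000021613, chromosome 13, 89540636 to 89611832, plus strand) and Vcan (ENSMUSG00000021614, chromosome 13, 89655312 to 89742509, minus strand) lie 43479 bases apart, tail to tail. Bcan (ENSMUSG00000004892, chromosome 3, 87987531 to 88000230, minus strand) and Hapln2 (ENSMUSG00000004894, chromosome 3, 88021750 to 88027583, minus strand) lie 21519 bases apart on the same strand. Hapln4 (ENSMUSG00000007594, chromosome 8, 70083529 to 70090862, plus strand) and Ncan (ENSMUSG00000002341, chromosome 8, 70093085 to 70120873, minus strand) are 2222 bases apart, tail to tail. Acan (ENSMUSG00000030607, chromosome 7, 79053483 to 79115099, plus strand) ends 2 bases from Hapln3, a link protein gene that is not among the 10. Cspg5 (ENSMUSG00000032482, chromosome 9, 110243783 to 110262576), Ptprz1 (ENSMUSG00000068748, chromosome 6, 22875502 to 23052916) and Tnr (ENSMUSG00000015829, chromosome 1, 159523769 to 159931729), all on the plus strand, have no such neighbour in the set.

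Promoters of 8 of the 10 genes were found in RefSeq (build GRCm38.p6), each covering 250 bases before and 50 after the start, and Cspg5 and Hapln4 are named only. Shown are Vcan and Hapln1, neighbours that were called in opposite directions at day 3, and Bcan and Ncan, the lecticans with the largest shares of lectican RNA. Capitals mark TATAAA or GGGCGG on either strand. The regions are chr13:89742463-89742762 (minus strand) for Vcan, chr13:89540386-89540685 (plus strand) for Hapln1, chr3:88000307-88000606 (minus strand) for Bcan and chr8:70120795-70121094 (minus strand) for Ncan.
Vcan: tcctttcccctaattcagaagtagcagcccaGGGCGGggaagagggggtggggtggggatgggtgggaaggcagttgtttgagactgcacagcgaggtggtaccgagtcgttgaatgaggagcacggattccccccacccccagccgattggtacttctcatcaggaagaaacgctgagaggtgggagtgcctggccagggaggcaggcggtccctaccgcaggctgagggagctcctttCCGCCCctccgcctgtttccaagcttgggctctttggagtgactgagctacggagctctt
Hapln1: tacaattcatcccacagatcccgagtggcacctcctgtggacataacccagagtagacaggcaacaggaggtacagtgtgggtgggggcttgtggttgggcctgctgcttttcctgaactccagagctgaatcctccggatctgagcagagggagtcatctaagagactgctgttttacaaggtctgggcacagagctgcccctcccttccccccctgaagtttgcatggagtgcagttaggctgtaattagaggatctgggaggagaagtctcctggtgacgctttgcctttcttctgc
Bcan: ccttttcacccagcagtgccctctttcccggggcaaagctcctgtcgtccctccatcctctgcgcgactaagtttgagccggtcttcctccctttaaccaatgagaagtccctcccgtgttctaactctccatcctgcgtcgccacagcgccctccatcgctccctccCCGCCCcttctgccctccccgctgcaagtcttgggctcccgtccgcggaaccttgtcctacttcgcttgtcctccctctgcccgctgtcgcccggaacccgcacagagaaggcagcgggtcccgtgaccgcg
Ncan: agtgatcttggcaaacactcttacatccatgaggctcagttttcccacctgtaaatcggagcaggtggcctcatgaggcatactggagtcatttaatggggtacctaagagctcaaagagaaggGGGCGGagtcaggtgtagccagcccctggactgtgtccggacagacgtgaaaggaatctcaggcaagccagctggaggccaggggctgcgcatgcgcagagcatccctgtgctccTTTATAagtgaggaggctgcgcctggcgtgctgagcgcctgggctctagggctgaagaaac
Over 32851 mouse promoters of this length, 35.7% held GGGCGG and 13.6% held TATAAA on either strand. The Vcan window held 2 matches to GGGCGG, the Bcan window 1, and the Ncan window 1 to each motif, while the Hapln1 window held neither motif. The AP-1 type motif TGANTCA (in 7.81% of all promoters) and the STAT type motif TTCNNNGAA (in 8.3%) matched none of the 8 windows, which says only that these letters are not there. G and C made up 61% of the Vcan window, 54.3% of Hapln1, 64% of Bcan and 56.7% of Ncan, against a median of 52.7% over all promoters.

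Library totals ran from 14299679 to 24022923 counts, and all 10 genes passed the filter on low counts, as 10 of 16494 genes tested. The fewest counts for any of them were 73 in 1 library, for Hapln1. Day 21 replicate 2 stood apart from the other day 21 libraries in log2 CPM (counts scaled to the library total as adjusted by the TMM scaling given below). Its median was 0.53 higher than theirs over the shortest 3215 genes and fell by 0.57 below theirs over the longest 3215, of 5 equal bins by gene length. Each day 3 library differed from the rest of its group by less than 0.01 in every bin, and day 0 replicate 1 ran from 0.13 in the shortest bin to -0.07 in the longest. Among the 10 genes, day 21 replicate 2 differed from the other day 21 libraries by -1.66 for Tnr, -1.11 for Vcan, -0.84 for Ptprz1 and -0.73 for Ncan, and by 0.67 for Bcan and 0.63 for Cspg5. These differences followed gene length only in part. The longest genes, Ptprz1 (20478 bases), Vcan (20003 bases) and Tnr (14266 bases), had the lowest values. But Cspg5 (13895 bases) and Tnr went opposite ways, and Hapln4, the shortest at 3576 bases, was at -0.35. The day 21 fold changes of the 10 genes are therefore given with and without it. The part of RNA quality in this difference was not tested.

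**Figure D1:**
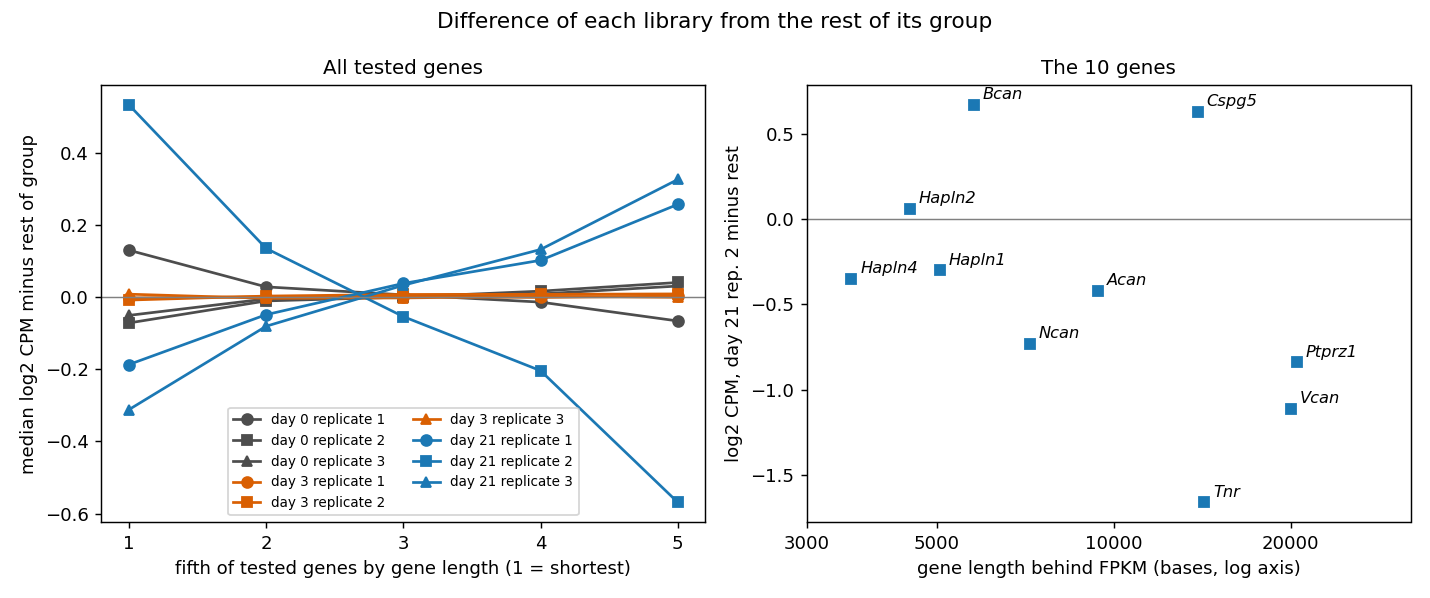
Left, the median over genes of each library's log2 CPM minus the rest of its group, by bin of gene length (5 bins of 3215 genes), for the 9 libraries. Right, log2 CPM of day 21 replicate 2 minus the other day 21 libraries for the 10 genes against the gene length behind their FPKM. Over all tested genes, day 21 replicate 2 is high for short and low for long genes. The 10 genes follow length only in part, with Tnr, Vcan and Ptprz1, the longest, lowest. Tnr is at -1.66 and Cspg5, of like length, at 0.63.

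At day 3, Vcan RNA rose and the RNA of Hapln4, Bcan, Acan, Hapln1 and Cspg5 fell relative to day 0. In all, 1 of the 10 genes was called higher and 5 lower at an edgeR adjusted p under 0.05, where 44.3% of all tested genes were called, 24.8% higher and 19.5% lower. The median log2 fold change of the 10 was -0.39, against 0.01 over all tested genes. The ranges of the day 3 and day 0 libraries did not overlap in FPKM (fragments per length of gene and per library total) for any of the 10 genes, and 67.5% of all genes were likewise separate. Without day 21 replicate 2, whose spread enters the shared estimate, all 10 genes were called, 2 higher and 8 lower, where 61.2% of all genes were called, 32% higher and 29.2% lower.

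At day 21 against day 0, Acan, Ncan and Hapln4 RNA fell, 3 of the 10 genes, where edgeR called 29.2% of all tested genes, 17.9% higher and 11.3% lower. None of the 10 was called higher by edgeR or DESeq2, although 2 were higher at an unadjusted p under 0.05. The median log2 fold change was -0.22, against 0.02 over all genes, and FPKM ranges were separate for 4 of the 10 genes and for 41.3% of all genes. Without day 21 replicate 2, edgeR called 9 of the 10, 3 higher (Vcan, Hapln1 and Ptprz1) and 6 lower (Acan, Bcan, Ncan, Cspg5, Hapln2 and Hapln4), where it called 47.5% of all genes, 25.1% higher and 22.4% lower. FPKM ranges were then separate for 9 of the 10 and for 63.2% of all genes. Tnr alone was then not called, with a log2 fold change of 0.11 ± 0.09 (SE) and an edgeR adjusted p of 0.324.

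At day 21 against day 3, Bcan, Hapln1 and Hapln4 RNA rose and Ncan and Vcan RNA fell, 3 higher and 2 lower of the 10, where edgeR called 27.8% of all genes, 11.7% higher and 16.1% lower. The median over the 10 genes was 0.20, against 0.02 over all genes, and FPKM ranges were separate for 6 of the 10 and for 44.4% of all genes. Without day 21 replicate 2, Ptprz1 and Tnr were also called higher, which gave 5 higher and 2 lower, where edgeR called 49.3% of all genes, 23.5% higher and 25.7% lower, and FPKM ranges were separate for 9 of the 10 and 72.2% of all genes. Both day 3 comparisons share the day 3 libraries, and both day 0 comparisons share the day 0 libraries.

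**Figure D2:**
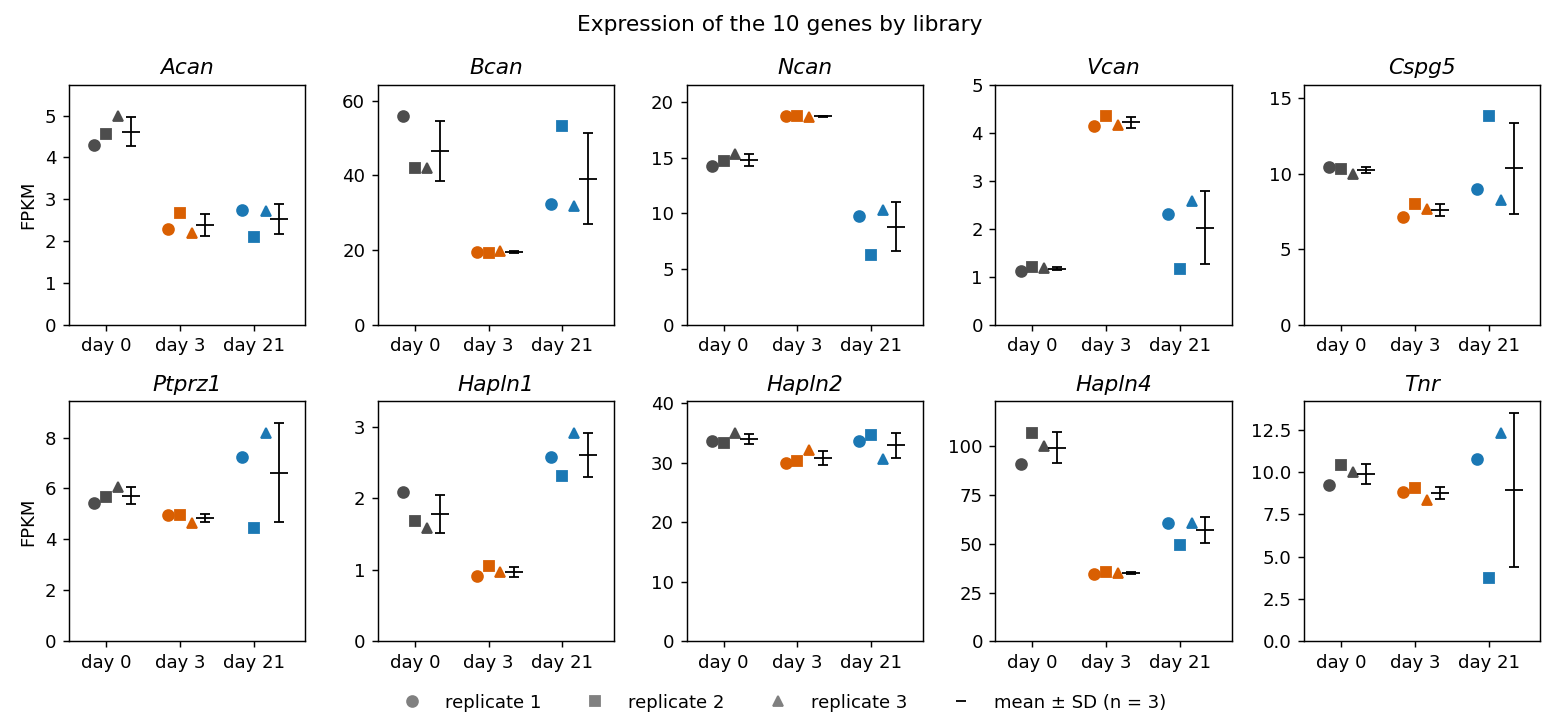
FPKM of the 10 genes in every library, in panels by gene, with days 0, 3 and 21 along the x axis, 1 symbol for each replicate and a bar at the group mean. Vcan is highest at day 3, at 4.15 to 4.36 FPKM, and Hapln4 is lowest there, at 34.3 to 35.7 FPKM.

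Vcan encodes versican, a large lectican made by oligodendrocyte precursors, fibroblasts and other cells. Its libraries in the order of replicates 1, 2 and 3, kept below, had 1.13, 1.20 and 1.18 FPKM at day 0, 4.15, 4.36 and 4.18 at day 3, and 2.32, 1.17 and 2.59 at day 21. Every day 3 library was higher than every other, and day 21 replicate 2 lay among the day 0 libraries while the other day 21 libraries were higher. The rise at day 3 was 3.48-fold over day 0 (log2 fold change 1.80 ± 0.26 SE, edgeR adjusted p = 0.000471). At day 21 the log2 fold change over day 0 was 0.68 ± 0.26 and was not called (edgeR adjusted p = 0.0788), while against day 3 it was -1.12 ± 0.26 (edgeR adjusted p = 0.0113). With that library left out, Vcan was higher at day 21 than at day 0 by 0.96 ± 0.08 on the log2 scale (edgeR adjusted p = 1.33e-05), and its log2 fold change against day 3 was -0.84 ± 0.08.

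Ncan encodes neurocan, a lectican that astrocytes and neurons secrete and that rodent astrocytes make after injury. It had 14.2, 14.7 and 15.3 FPKM at day 0, 18.7 in each library at day 3, and 9.79, 6.26 and 10.3 at day 21. The 3 days did not overlap, with day 3 highest and day 21 lowest, and day 21 replicate 2 lowest of all. The day 3 difference from day 0, a log2 fold change of 0.29 ± 0.18, was not called (edgeR adjusted p = 0.23). Once day 21 replicate 2 was left out it was 0.29 ± 0.06 and was called (edgeR adjusted p = 0.00214). At day 21 Ncan fell by 0.87 on the log2 scale (SE 0.18) against day 0 (edgeR adjusted p = 0.00713) and by 1.16 (SE 0.18) against day 3 (edgeR adjusted p = 0.00198). Both falls were called without day 21 replicate 2, at log2 fold changes of -0.67 ± 0.07 and -0.95 ± 0.07.

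Bcan encodes brevican, the most abundant lectican of adult brain, made by astrocytes and oligodendrocyte precursors and by some neurons. It had 55.9, 42.0 and 41.9 FPKM at day 0, 19.5, 19.3 and 19.6 at day 3, and 32.4, 53.2 and 31.9 at day 21. The day 3 libraries lay far below all others, and the day 21 libraries overlapped with day 0 only through day 21 replicate 2. Bcan was 2.48-fold lower at day 3 than at day 0 (log2 fold change -1.31 ± 0.19, edgeR adjusted p = 0.000517). From day 3 it was higher at day 21 by a log2 fold change of 0.93 ± 0.19 (edgeR adjusted p = 0.00708), or 0.67 ± 0.10 without day 21 replicate 2. Against day 0, day 21 gave -0.38 ± 0.19 and no call (edgeR adjusted p = 0.17), but -0.64 ± 0.10 without day 21 replicate 2 (edgeR adjusted p = 0.000657).

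Acan encodes aggrecan, the lectican of cartilage, which in the nervous system is mainly a neuronal product and a defining part of perineuronal nets. It had 4.30, 4.56 and 4.99 FPKM at day 0, 2.28, 2.68 and 2.19 at day 3, and 2.73, 2.10 and 2.73 at day 21. All libraries of days 3 and 21 were lower than all of day 0, and days 3 and 21 overlapped. Acan was 2.01-fold lower at day 3 than at day 0 (log2 fold change -1.01 ± 0.15, edgeR adjusted p = 0.000589). At day 21 the log2 fold change against day 0 was -1.0 ± 0.15 (edgeR adjusted p = 0.00142), and against day 3 it was 0.01 ± 0.15 and not called (edgeR adjusted p = 0.966). With day 21 replicate 2 left out, these were -0.87 ± 0.11 and 0.14 ± 0.11, with the same calls. The summed level of 15 cartilage and bone genes was 17.7 to 19.2 FPKM at day 0, 25.7 to 27.1 at day 3 and 28.7 to 41.3 at day 21, and the part of such tissue in the Acan level was not tested.

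The makeup of lectican RNA changed with these genes. As shares of the summed lectican FPKM, Bcan made up 69.1% ± 4.28 at day 0, 43.5% ± 0.529 at day 3 and 73.5% ± 9.78 at day 21 (SD, n = 3 each). Ncan made up 22.2% ± 2.96, 41.7% ± 0.208 and 17.4% ± 6.46 on the same days. Vcan made up 1.76% ± 0.226 at day 0, 9.44% ± 0.212 at day 3 and 4.08% ± 1.93 at day 21, and Acan 6.95% ± 1.12, 5.32% ± 0.548 and 4.96% ± 1.39. Bcan and Ncan thus stood at like shares at day 3 and far apart on the other days, with no overlap between day 3 and day 0 for either. An exact permutation test of 3 against 3 libraries cannot go below 0.1, so no p is given. In day 21 replicate 2 Bcan made up 84.8%, against 67.2% and 68.6% in the other day 21 libraries. Summed lectican FPKM was 67.1 ± 7.26 at day 0, 44.8 ± 0.208 at day 3 and 52.5 ± 8.83 at day 21. Shares depend on the gene length used: over the exons of GENCODE M21, Bcan made up 50.2% and Ncan 33.8% at day 3, against 74.6% and 16.9% at day 0.

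**Figure D3:**
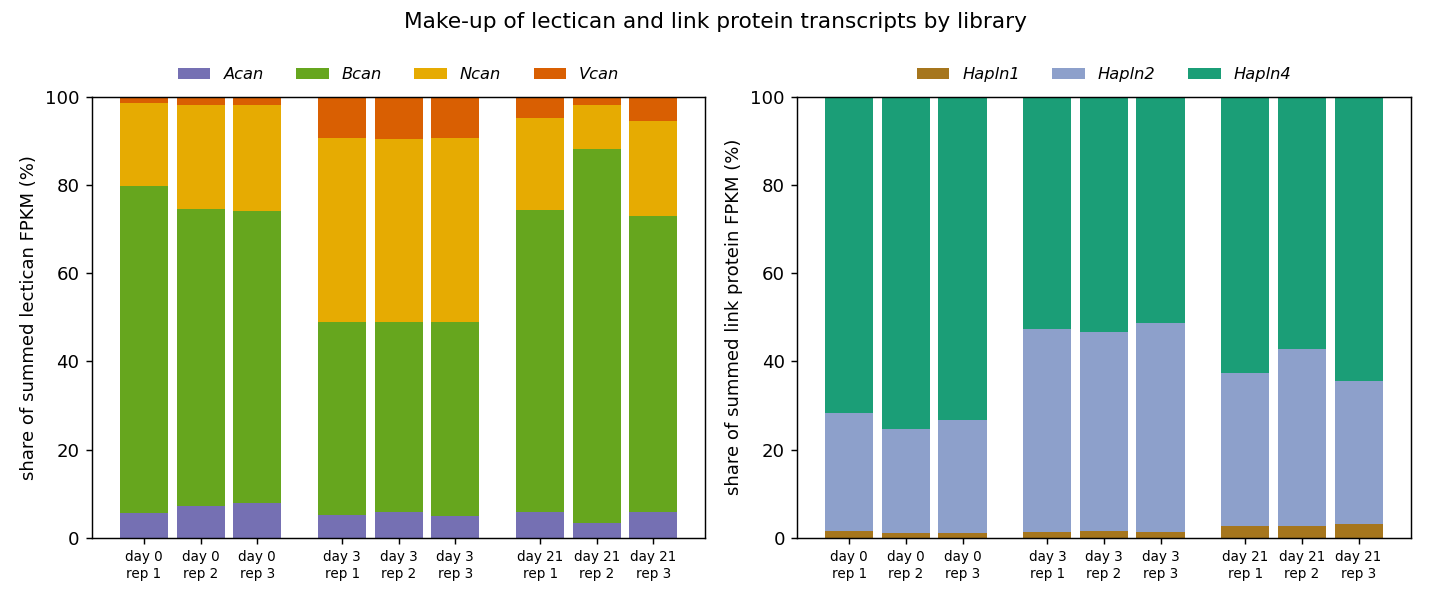
Stacked shares (%) of summed FPKM in every library, for the 4 lecticans and for the 3 link proteins, with libraries of days 0, 3 and 21 along the x axis. Bcan and Ncan hold 43.5% and 41.7% of lectican FPKM at day 3 on average, and Hapln4 holds 52.5% of link protein FPKM there.

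Hapln4 encodes the brain link protein Bral2, which belongs to the nets of brainstem and cerebellar neurons and binds brevican. With 90.8, 106.9 and 100.3 FPKM at day 0, 34.3, 35.7 and 34.9 at day 3, and 60.8, 49.3 and 60.9 at day 21, it had the highest mean FPKM of the 10 genes on each day, although Bcan was higher in day 21 replicate 2 and the order against Hapln2 depends on gene length, as given below. At day 21 the order of the means against Bcan also depends on length. GENCODE M21 exons give 4064 bases for Bcan and 3924 for Hapln4, in place of 5780 and 3576 behind their FPKM. The 3 days were separate, with day 3 lowest and day 21 between. It was 2.95-fold lower at day 3 than at day 0 (log2 fold change -1.56 ± 0.13, edgeR adjusted p = 1.39e-05). At day 21 the log2 fold change was -0.93 ± 0.13 against day 0 (edgeR adjusted p = 0.000788) and 0.63 ± 0.13 against day 3 (edgeR adjusted p = 0.00627). Both were called without day 21 replicate 2, at -0.82 ± 0.08 and 0.74 ± 0.08.

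Hapln1, the cartilage link protein that nets of the cortex and spinal cord also hold, had 2.08, 1.68 and 1.58 FPKM at day 0, 0.909, 1.05 and 0.968 at day 3, and 2.59, 2.31 and 2.92 at day 21. No 2 days overlapped, and here day 21 was highest. It was 1.89-fold lower at day 3 than at day 0 (log2 fold change -0.92 ± 0.15, edgeR adjusted p = 0.00112). Against day 3, day 21 was higher by 1.35 ± 0.15 on the log2 scale (edgeR adjusted p = 0.000344), or by 1.44 ± 0.14 without day 21 replicate 2. Against day 0 the log2 fold change at day 21 was 0.42 ± 0.15 and was not called (edgeR adjusted p = 0.0605). It was called without day 21 replicate 2 (0.51 ± 0.13, edgeR adjusted p = 0.0111) and without day 0 replicate 1 (edgeR adjusted p = 0.0386). The summed cartilage and bone genes were also highest at day 21, at 28.7 to 41.3 FPKM. The part of such tissue in the Hapln1 level was not tested.

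Hapln2, the link protein Bral1 that oligodendrocytes make and that sits at nodes of Ranvier, had the smallest span of group means among the 10 genes, 0.20 on the log2 scale. It had 33.6, 33.4 and 35.0 FPKM at day 0, 29.9, 30.2 and 32.1 at day 3, and 33.6, 34.6 and 30.6 at day 21. The day 3 libraries were lower than the day 0 libraries by a small step, and day 21 overlapped with both. The log2 fold change at day 3 against day 0 was -0.20 ± 0.09 and was not called (edgeR adjusted p = 0.115), and at day 21 against day 0 it was -0.17 ± 0.09 (edgeR adjusted p = 0.2). Both were called without day 21 replicate 2 (edgeR adjusted p = 0.0195 and 0.0456), the day 21 value then being -0.19 ± 0.07. Against day 3, day 21 gave 0.03 ± 0.09 with all libraries and 0.01 ± 0.07 without that library, not called either way. The summed level of 10 mature oligodendrocyte markers was 2150 to 2311 FPKM at day 0, 2015 to 2040 at day 3 and 2062 to 2189 at day 21. At day 3 against day 0, 6 of these markers were called lower and 1 higher (all genes, 19.5% and 24.8%), with a median log2 fold change of -0.48. Mobp, the highest of them, averaged 629 FPKM at day 0 and at day 3. Cldn11 averaged 425.2 at day 3 against 295.3 at day 0, and Opalin 16.8 against 35.5.

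Summed FPKM of the 3 link proteins was 135.1 ± 7.9 at day 0, 66.7 ± 1.47 at day 3 and 92.5 ± 5.68 at day 21. Hapln4 made up 73.5% ± 1.76, 52.5% ± 0.971 and 61.5% ± 3.8 of it on those days and Hapln2 25.2% ± 1.58, 46.1% ± 1.06 and 35.7% ± 3.95. With the exon lengths of GENCODE M21, Hapln2 held the larger share at days 3 and 21, at 64.0% and 53.6%, so that the order of these link proteins depends on the length used. Hapln3, the fourth link protein gene, averaged 0.895 ± 0.0615 FPKM at day 3 against 0.403 ± 0.0166 at day 0, a log2 fold change of 1.1 ± 0.22 (edgeR adjusted p = 0.00308), and so went the other way from Hapln1 and Hapln4.

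Neighbours in the genome did not keep a fixed ratio. The ratio of Hapln1 to Vcan FPKM was 1.53 ± 0.274 at day 0, 0.231 ± 0.0107 at day 3 and 1.40 ± 0.492 at day 21 (SD, n = 3 each). That of Hapln4 to Ncan was 6.73 ± 0.466, 1.87 ± 0.0382 and 6.66 ± 1.05 on those days. In both pairs the ratio was lower in each day 3 library than in any other. At day 21, Hapln1 to Vcan gave 1.12, 1.97 and 1.13 and Hapln4 to Ncan 6.20, 7.87 and 5.92, and these ranges overlapped with day 0 only through replicate 2. The other day 21 libraries lay below the day 0 ranges of 1.34 to 1.84 and 6.38 to 7.26. Hapln2 to Bcan gave 0.744 ± 0.125 at day 0, 1.58 ± 0.0523 at day 3 and 0.881 ± 0.204 at day 21, and Hapln3 to Acan 0.0874 ± 0.00501, 0.377 ± 0.0317 and 0.159 ± 0.0603. In these pairs the day 3 ratios were higher than those of every other library.

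Tnr encodes tenascin-R, which oligodendrocytes, their precursors and some neurons make and which binds lecticans in nets and at nodes. It had 9.21, 10.4 and 10.0 FPKM at day 0, 8.83, 9.03 and 8.36 at day 3, and 10.8, 3.76 and 12.3 at day 21. Day 21 replicate 2 was the lowest library, and the other day 21 libraries were the highest. The log2 fold change was -0.23 ± 0.36 at day 3 against day 0 (edgeR adjusted p = 0.633) and -0.03 ± 0.36 at day 21 against day 3 (edgeR adjusted p = 0.965), neither called, and -0.26 ± 0.36 at day 21 against day 0 (edgeR adjusted p = 0.63), also not called. Without day 21 replicate 2, Tnr was lower at day 3 than at day 0 (-0.23 ± 0.08, edgeR adjusted p = 0.0261) and higher at day 21 than at day 3 (0.34 ± 0.09, edgeR adjusted p = 0.00884), and at day 21 against day 0 the value was 0.11 ± 0.09, so that the signs of both day 21 comparisons turned with this library. Tnc, tenascin-C, the relative that astrocytes and fibroblasts make in wounds, averaged 27.4 ± 0.923 FPKM at day 3 against 0.882 ± 0.0606 at day 0 (log2 fold change 4.90 ± 0.11, edgeR adjusted p = 3.33e-08).

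Ptprz1 encodes a receptor phosphatase of glia, whose shed or secreted form phosphacan is a chondroitin sulphate proteoglycan and binds tenascins and pleiotrophin. It had 5.42, 5.67 and 6.07 FPKM at day 0, 4.94, 4.94 and 4.66 at day 3, and 7.22, 4.45 and 8.19 at day 21. Day 21 replicate 2 was again lowest and its group mates highest. No comparison was called, with log2 fold changes of -0.29 ± 0.21 at day 3 against day 0 (edgeR adjusted p = 0.284), 0.09 ± 0.21 at day 21 against day 0 (edgeR adjusted p = 0.785) and 0.38 ± 0.21 at day 21 against day 3 (edgeR adjusted p = 0.206). All 3 were called without day 21 replicate 2, when day 3 was lower than day 0 (edgeR adjusted p = 0.00658) and day 21 was higher than day 3 by 0.61 ± 0.08 (edgeR adjusted p = 0.000238) and than day 0 by 0.32 ± 0.08 (edgeR adjusted p = 0.0107). Its ligand pleiotrophin, Ptn, averaged 54.2 ± 5.36 FPKM at day 21 against 28.8 ± 1.21 at day 0 (log2 fold change 0.78 ± 0.10, edgeR adjusted p = 0.000545).

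Cspg5 encodes neuroglycan C, a transmembrane proteoglycan with an EGF-like part. It had 10.4, 10.3 and 10.0 FPKM at day 0, 7.17, 7.97 and 7.66 at day 3, and 8.99, 13.8 and 8.29 at day 21. The day 3 libraries were lowest, and day 21 replicate 2 was highest of all while the other day 21 libraries lay between. It was 1.40-fold lower at day 3 than at day 0 (log2 fold change -0.48 ± 0.17, edgeR adjusted p = 0.0432). That call held in 9 of 19 alternatives. It was lost on leaving out any single library of day 0 or day 3 (edgeR adjusted p from 0.0856 to 0.131), though the log2 fold change stayed between -0.52 and -0.44. It was also lost with limma on log2 FPKM at each pseudocount (adjusted p from 0.0834 to 0.11) and with the length trend removed (edgeR adjusted p = 0.27). Without day 21 replicate 2 the edgeR adjusted p was 7.19e-05. At day 21 it was not called against day 0 (-0.11 ± 0.17, edgeR adjusted p = 0.659), but it was lower without day 21 replicate 2 (-0.36 ± 0.07, edgeR adjusted p = 0.00219). Against day 3 it was not called with all libraries (0.37 ± 0.17) or without that library (0.13 ± 0.07). Cspg4, the NG2 proteoglycan of oligodendrocyte precursors and pericytes, went the other way at day 3, with 9.36 ± 0.23 FPKM against 4.01 ± 0.0284 at day 0 (log2 fold change 1.17 ± 0.12, edgeR adjusted p = 5.23e-05).

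**Figure D4:**
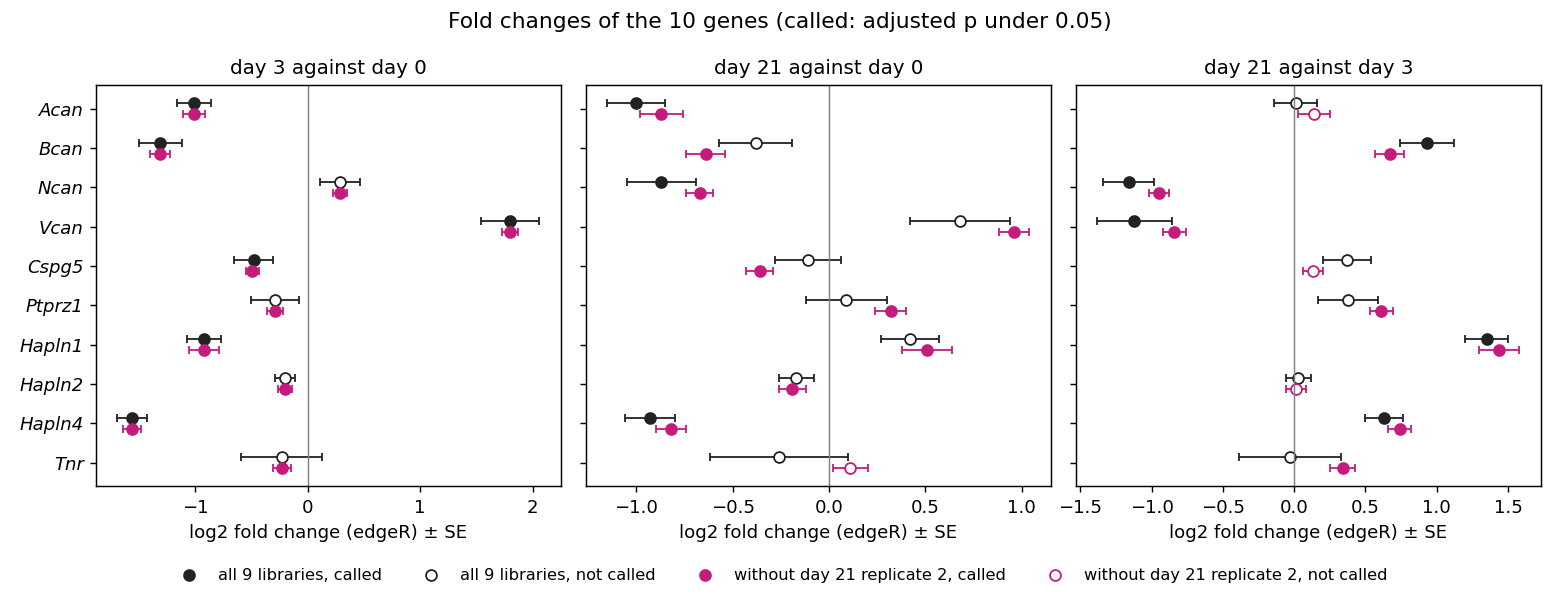
Log2 fold changes of the 10 genes with standard errors from edgeR, for day 3 against day 0, day 21 against day 0 and day 21 against day 3, with all 9 libraries and without day 21 replicate 2. Vcan is the only gene called higher at day 3 with all libraries (1.80), and Hapln4 has the lowest value there (-1.56).

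By level, the 10 genes at day 0 ran from Hapln4 through Bcan, Hapln2, Ncan, Cspg5, Tnr, Ptprz1, Acan and Hapln1 down to Vcan, and only Cspg5 and Tnr overlapped. At day 3 no neighbours in the order overlapped, Hapln2 stood before Bcan, and Vcan stood before Acan and Hapln1, which was lowest. The day 21 order was Hapln4, Bcan, Hapln2, Cspg5, Tnr, Ncan, Ptprz1, Hapln1, Acan and Vcan. There each gene overlapped with the next, except Hapln2 with Cspg5 and Ptprz1 with Hapln1, and Hapln4 and Bcan overlapped only through replicate 2. These levels are per length, and the lengths behind FPKM were over 10% longer than the GENCODE M21 exons for 7 of the 10 genes.

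Several cell types changed along with these genes, and in bulk cord fewer cells of a type and less RNA per cell cannot be told apart. All 13 neuron markers were called lower at day 3 against day 0, where 19.5% of all genes were. Their summed level was 1305 to 1316 FPKM at day 3 against 2691 to 2719 at day 0, and 1759 to 1880 at day 21. Per 1000 FPKM of these neuron markers, Acan stood at 1.82 ± 0.201 at day 3 against 1.71 ± 0.121 at day 0, and these ranges overlapped, while at day 21 it stood at 1.12 to 1.55, below the day 0 range of 1.59 to 1.83. Bcan stood at 14.8 to 15 at day 3 against 15.4 to 20.7 at day 0, and Tnr at 6.67 ± 0.26 against 3.65 ± 0.23. Hapln4 stood at 26.7 ± 0.641 at day 3 against 36.7 ± 3.07 at day 0, and these ranges were separate. Its day 21 range of 26.2 to 34.6 overlapped with the day 0 range of 33.6 to 39.7. Hapln1 stood at 0.745 ± 0.0562 at day 3 against 0.659 ± 0.099 at day 0, with overlap, and at 1.44 ± 0.215 at day 21, above both. Nefl and Nefm held most of the neuron marker sum, with means of 1028 and 577.8 FPKM at day 0. The markers fell unequally by day 3, with Slc6a5 at 22.3 against 81.5 FPKM and Tubb3 at 371.9 against 434.9. These ratios therefore depend on the markers chosen. Astrocyte markers summed to 2690 to 2740 FPKM at day 3 against 1307 to 1345 at day 0, and to 2367 to 2699 at day 21. Gfap dominated these sums, with 2012 ± 8.3 FPKM at day 3 against 552.8 ± 12.1 at day 0, and the means of the other 9 summed to 709.6 at day 3 against 777 at day 0. Of the 10, 4 were called higher and 3 lower at day 3 against day 0 (all genes, 24.8% and 19.5%), with a median log2 fold change of -0.20. Oligodendrocyte precursor markers summed to 324.9 to 336.9 FPKM at day 3 against 305.7 to 320.5 at day 0, and to 264.7 to 321.9 at day 21. Olig1 held the largest part of these sums, with 123.3 FPKM at day 3 against 153.4 at day 0. The markers moved unequally, with Gpr17 at 37.7 against 14, Pdgfra at 8.55 against 4.2 and Olig2 at 20.4 against 32.4. At day 3 against day 0, 4 of the 12 precursor markers were called higher and 2 lower (all genes, 24.8% and 19.5%, or 44.3% in all). Without day 21 replicate 2 these were 7 and 4 (all genes, 32% and 29.2%, or 61.2% in all).

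Myeloid markers summed to 709.2 to 715.2 FPKM at day 3 against 50.4 to 54.4 at day 0, and all 9 were called higher (24.8% of all genes). Of the 10 fibroblast and meninges markers, 9 were called higher and 1 lower at day 3 against day 0 (all genes, 24.8% and 19.5%). Their sums were 846.1 to 878.3 FPKM against 533.0 to 693.4 and were dominated by Thy1, which neurons also express. Schwann cell markers summed to 903.3 to 923.5 FPKM at day 3 against 452.1 to 461.2 at day 0, with 8 of 10 called higher and 1 lower (all genes, 24.8% and 19.5%). Skeletal muscle markers summed to 114.6 to 198.1 FPKM at day 21 against 14.9 to 19.1 at day 0 and 8.16 to 8.31 at day 3. No marker was at 0 counts throughout any group. The part of these cell types in the changes of the 10 genes was not tested.

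The core proteins carry chains that other enzymes build and sulphate. Of 25 such genes tested, 9 were called higher and 1 lower at day 3 against day 0, with a median log2 fold change of 0.12. Together these were close to the 44.3% called over all genes. By direction, a larger share was higher and a smaller share lower than the 24.8% and 19.5% of all genes. Chst14, a sulphotransferase of dermatan sulphate, averaged 2.62 ± 0.204 FPKM at day 3 against 0.635 ± 0.12 at day 0 (log2 fold change 1.99 ± 0.21, edgeR adjusted p = 6.77e-05). Chsy1, which polymerises the chain, averaged 7.47 ± 0.364 against 2.7 ± 0.0743 FPKM (1.42 ± 0.17, edgeR adjusted p = 0.000167). Dse, the dermatan sulphate epimerase (1.59 ± 0.17), and Papss2, which makes the sulphate donor (1.27 ± 0.17), also rose. Later, at day 21 against day 3, 7 of the 25 were called lower, where 16.1% of all genes were, among them Chsy1 at -1.32 ± 0.17 and the 4-O-sulphotransferase Chst11 at -0.95 ± 0.19. Leaving out day 21 replicate 2, 11 were higher and 7 lower at day 3 against day 0 (all genes, 32% and 29.2%). The share lower was then close to that of all genes. At day 21 against day 3, 2 were higher and 10 lower without that library (all genes, 23.5% and 25.7%). Chsy1 and Chst11 were then at -1.13 and -0.74 in the second comparison.

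Of 16 genes of hyaluronan, the backbone of the nets, 9 were called higher and 3 lower at day 3 against day 0 (all genes, 24.8% and 19.5%), with a median log2 fold change of 0.92. Cd44, a hyaluronan receptor, averaged 9.59 ± 0.468 FPKM at day 3 against 1.11 ± 0.167 at day 0 (log2 fold change 3.06 ± 0.14, edgeR adjusted p = 4.01e-07). Cemip, which takes part in hyaluronan breakdown, averaged 5.08 ± 0.212 against 0.535 ± 0.0788 FPKM (3.19 ± 0.28, edgeR adjusted p = 1.86e-05). Of 15 other proteoglycans and relatives of the 10 genes, 8 were called higher and 6 lower at day 3 against day 0, beside the same 24.8% and 19.5% of all genes. Decorin, Dcn, a small leucine-rich proteoglycan of connective tissue, averaged 216.4 ± 3.66 FPKM at day 3 against 17.7 ± 0.245 at day 0 (3.56 ± 0.12, edgeR adjusted p = 9.39e-08), and biglycan, Bgn, rose by 3.52 ± 0.13. The 6 called lower were Spock1, Spock2, Spock3, Nrg3, App and Aplp2. Of these, Spock2 averaged 101.1 ± 0.43 against 182.6 ± 3.09 FPKM (-0.91 ± 0.09, edgeR adjusted p = 4.94e-05).

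Proteases that cut lecticans, together with their inhibitor, had 10 of 13 genes called higher and 1 lower at day 3 against day 0 (all genes, 24.8% and 19.5%), with a median log2 fold change of 2.12. The inhibitor Timp3 was itself among the higher genes (1.14 ± 0.19), and Mmp9 was the lower one (-0.60 ± 0.11). Adamts4 was not called, with 25.5 ± 0.464 FPKM at day 3 against 25.4 ± 0.508 at day 0. Adamts1 averaged 29.6 ± 0.121 FPKM at day 3 against 4.15 ± 0.422 at day 0 (log2 fold change 2.79 ± 0.16, edgeR adjusted p = 1.83e-06), and the gelatinase Mmp2 22.9 ± 0.546 against 2.77 ± 0.201 FPKM (2.99 ± 0.11, edgeR adjusted p = 1.19e-07). Of the 13, 9 were called lower at day 21 against day 3 (16.1% of all genes), with Adamts1 at -2.46 ± 0.16 and Mmp14 at -1.62 ± 0.12, or -2.30 and -1.74 without day 21 replicate 2. Mmp3 had no count in any day 0 library and was at least 47.6-fold higher at day 21, taking 3 counts over the group as the floor.

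Of 17 receptors and binding partners, 4 were called higher and 4 lower at day 3 against day 0, close to the 44.3% called over all genes. Rtn4rl2, a receptor of the Nogo receptor family, averaged 2.15 ± 0.403 FPKM at day 3 against 0.194 ± 0.0573 at day 0 (log2 fold change 3.39 ± 0.33, edgeR adjusted p = 4.18e-05), and Crtac1, a secreted cartilage and brain protein, 22.2 ± 0.71 against 49.9 ± 1.38 FPKM (-1.22 ± 0.12, edgeR adjusted p = 3.08e-05), although 7.75% of its exon bases overlap another gene. With day 21 replicate 2 left out, 7 were higher and 8 lower, where 61.2% of all genes were called.

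Motor, parvalbumin and fast-spiking neurons are those best known to carry nets. Of 15 of their genes tested, 12 were called lower and 1 higher at day 3 against day 0 (all genes, 19.5% and 24.8%), with a median log2 fold change of -1.51. Chat, the acetylcholine enzyme of motor neurons, averaged 4.87 ± 0.588 FPKM at day 3 against 16 ± 1.89 at day 0 (log2 fold change -1.77 ± 0.16, edgeR adjusted p = 2.38e-05). At day 21 against day 0, 8 of the 15 were called lower (11.3% of all genes), with Chat at -0.86 ± 0.15, and 12 without day 21 replicate 2 (22.4% of all genes), with Chat at -0.77. Against day 3, 10 were called higher and 1 lower at day 21 (all genes, 11.7% and 16.1%), or 12 and 2 without day 21 replicate 2 (23.5% and 25.7%). With all libraries Chat stood at 0.91 ± 0.16 and the choline transporter Slc5a7 at 1.73 ± 0.22.

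**Figure D5:**
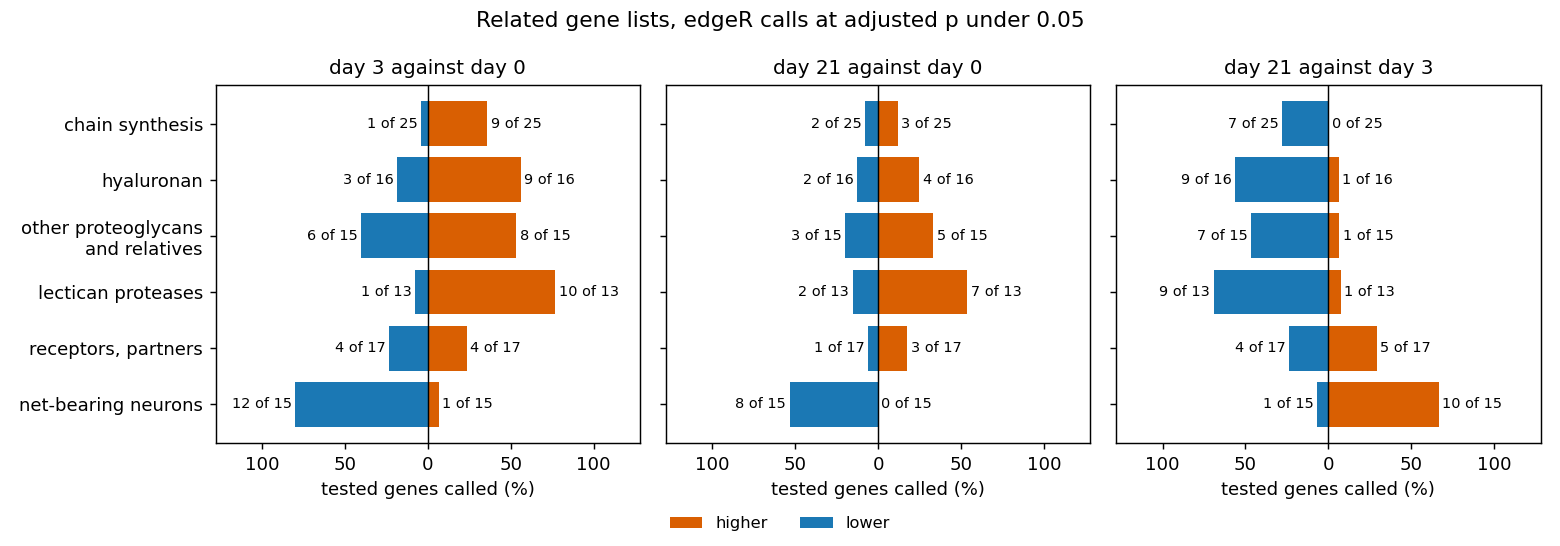
Share of tested genes called higher (right of 0) or lower (left of 0) by edgeR in 6 lists related to the 10 genes, for the 3 comparisons, with counts beside the bars. At day 3 against day 0 the proteases and their inhibitor have 10 of 13 genes higher and the net-bearing neurons 12 of 15 genes lower.

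Likeness to other genes was measured for the 6 genes whose group means spanned at least 1 on the log2 scale, as the root mean square difference of centred log2 CPM over the 9 libraries among 12877 genes. Nearest to Hapln4 were Rimkla (0.077), Sgpp2 (0.104) and Slc32a1 (0.108), and Rimkla averaged 36.9, 12.2 and 21.5 FPKM at days 0, 3 and 21. Nearest to Bcan were Pnck (0.065), Thrsp (0.090) and Ralyl (0.101). Acan lay nearest to Apln (0.103), Ctif (0.106) and Prrc2b (0.113), and Ncan to Npas2 (0.122), Iffo2 (0.135) and Sema3f (0.147). Vcan lay nearest to Palld (0.124), Slc7a8 (0.125) and Fndc3b (0.127), and Slc7a8 averaged 6.16, 20.8 and 9.13 FPKM on the 3 days. Hapln1 lay nearest to Zfp763 (0.119), Serpini1 (0.122) and Mir124-2hg (0.132). These distances describe the 9 libraries and share their length effects.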

How the data were processed

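RNA was measured in 9 spinal cord libraries, 3 for each day, per the labels. Per the labels' protocols, poly-A RNA was made into paired-end TruSeq libraries. The submitters' processing notes name HISAT2, StringTie and GRCh38, a human build, without versions. The gene positions in the table are those of mouse GRCm38 (34267 gene IDs are in GENCODE M21, and 27686 have the same position), so GRCm38 is used here. The authors deposited raw counts and FPKM for each gene, and no source used here says whether counting used strand. FPKM followed count over length and library total within 0.00161% in 12001 genes.

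Counts were tested with edgeR 4.0.16 in R 4.3.3 (TMM scaling, its default filter on low counts, quasi-likelihood test, two-sided), with all 9 libraries in 1 fit. The threshold for a call was 0.05 on p adjusted by Benjamini-Hochberg over 16494 tested genes, and standard errors were derived from the F statistic. Levels are FPKM as mean ± SD. DESeq2 1.42.0, limma 3.58.1, other scaling, filters and pseudocounts, and leaving out each library were the alternatives. A further alternative, removing the trend with gene length in each library, was chosen after seeing the data. Scripts were tested on simulated counts. Counting precision follows the 14299679 to 24022923 counts per library, which cover counting error only.

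The 10 genes and the lists were chosen with earlier results of these data known. From each list, the called genes with the largest change were eligible to be named, at most 4 a comparison and only where the higher group reached a mean of 1 FPKM. Hapln3, Tnc, Cspg4, Timp3, Mmp9 and Adamts4 were added, as were the other proteoglycans and relatives called lower at day 3. Replicates of a day differed by more than sampling noise over all genes, and each counted as 1 sample. That difference cannot tell separate animals from repeat libraries of the same material. For single genes the day 3 libraries could lie very close, with an SD of 0.0154 FPKM for Ncan at a mean of 18.7.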

Additional observations from a re-analysis of the deposited data

How the results depend on the processing

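The calls of Acan, Bcan, Vcan, Hapln1 and Hapln4 at day 3 against day 0, of Acan, Ncan and Hapln4 at day 21 against day 0, and of Bcan, Ncan, Vcan, Hapln1 and Hapln4 at day 21 against day 3 held in all 19 alternatives. At day 3 against day 0, called genes numbered 6 with all libraries in edgeR, 10 (2 higher, 8 lower) with voom sample weights (66.2% of all genes called) and with only these groups fitted (61.7%), and 5 to 10 when a library was left out (1 to 2 higher, 4 to 8 lower). At day 21 against day 0 they numbered 3, none higher. Voom gave 9 (3 higher, 6 lower, 50.3% of all genes), removal of the length trend 5 (2 higher, 35.7% of all genes), limma on FPKM with each pseudocount 1 higher, and leaving out a library 3 to 9 (0 to 3 higher, 3 to 6 lower). At day 21 against day 3, voom gave 5 higher in place of 3, and leaving out a library gave 5 to 7 called, 3 to 5 higher and 2 lower. The day 21 against day 3 log2 fold change of Tnr, -0.03, reversed to 0.28 with voom (adjusted p = 0.0495), and ran from -0.33 to 0.34 when a library was left out. Voom gave day 21 replicate 2 a weight of 0.0583, and the highest counts above came with that library left out. The cause was not tested. Over all genes, 29.2% were called at day 21 against day 0, but 18.2% with only these groups fitted. At day 21 against day 3, 27.8% became 56.1% with voom (26.8% higher). With a library left out, 16716 to 16808 genes were tested, and 5879 to 10245 were called at day 3 against day 0. Called genes then numbered 3273 to 7955 at day 21 against day 0 and 2893 to 8246 at day 21 against day 3. Limma on FPKM called 2667 to 3422 of 16494 genes higher at day 21 against day 0.

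Replicate numbers are shared between groups, but nothing says that they pair samples, and same-numbered libraries correlated at only -0.146 to 0.107. With the replicate block, 6, 3 and 5 genes were called in the 3 comparisons, as without it. Over all 16494 genes, the block gave 6589, 3834 and 3640 calls, against 7307, 4813 and 4585 without it. Hapln1, with as few as 73 counts in a library, is the gene that depth limits most.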
